A study of Mus musculus with 2 samples.

Results

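The 9 genes described here are Ptn, Tenm2, Adarb2, Cobl, Rtl4, Eya1, Pdzrn4, Mpped2 and Nrg3, of 34184 genes listed in the files. They were taken by symbol because earlier results of these data placed them among the genes nearly absent from the CAR cells of ectopic bone and present in those of femur marrow. The members were thus chosen by their levels in CAR cells of both tissues, and the values of that contrast are given as a description. What the choice did not use is how the genes are spread over single femur CAR cells, whether they occur together in a cell, and which other cell classes hold them.

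CXCL12-abundant reticular (CAR) cells are perivascular stromal cells of bone marrow that make the chemokine Cxcl12 and stem cell factor (Kitl), and they form a niche for hematopoietic stem cells and for B cell progenitors. They carry the leptin receptor (Lepr), depend on transcription factors such as Foxc1 and Ebf3, and can give rise to fat and bone cells. The 9 genes belong to no single pathway. They code for a secreted growth factor and a ligand (Ptn, Nrg3), an adhesion receptor (Tenm2), proteins of the cytoskeleton and of protein turnover (Cobl, Pdzrn4), a relative of RNA-editing enzymes (Adarb2), a transcription coactivator (Eya1), a phosphoesterase (Mpped2) and a gene of retrotransposon origin (Rtl4).

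Cells of mouse femur marrow and of ectopic bone induced with BMP-2 were profiled in single-cell RNA libraries, 1 for each tissue. The ectopic bone was harvested 4 weeks after 8 µg of BMP-2, a bone-forming growth factor, on 40 mg of β-TCP, a ceramic carrier, had been placed under the skin of C57BL6 or Cxcl12-GFP mice. In both libraries hematopoietic cells came from wild-type (C57BL6J) mice, CAR cells came from mice with the Cxcl12-GFP reporter, and the CAR cell preparation was depleted of hematopoietic and endothelial cells before sorting. Both preparations were combined before loading, so the proportion of CAR cells in a library was set by the mixing. The ages, sexes and numbers of mice are not given in the sources used here. With 1 library per tissue no difference between tissues could be tested, and every interval below is a 95% interval that covers counting error only. A lower level in ectopic CAR cells cannot be told apart from another make-up of the cells collected there.

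After quality filters 9755 femur and 6425 ectopic cells were kept, from libraries of 123009924 and 86018367 unique molecular identifiers (UMIs, counts of single captured molecules). Clusters, built without the 9 genes, were named from marker lists. CAR-like cells were the only stromal class found, and it had 242 cells in femur, of median depth 9090 UMIs, and 181 in ectopic bone, of median depth 10353 UMIs. All 15 CAR markers were detected in the CAR-like cells of both libraries. They summed to 28196 and 31551 CPM (UMIs of a gene per 1000000 UMIs of the cells summed) against 688 and 614 CPM in the other cells. The clusters had been named from these same markers, so these values describe the class and cannot check its label. EGFP, the reporter transcript and not on the lists, stood at 607 and 930 CPM against 0.222 and 0.352 CPM. Markers of Schwann and neural cells, checked because several of the 9 genes are also known from the nervous system, summed to 359 and 303 CPM in the CAR-like cells of femur and ectopic bone, against 222 and 207 CPM elsewhere. Of these 11 markers Snap25 and Gfap were at 0 in the CAR-like cells of both libraries, and Cdh19 was at 0 in the ectopic ones. The 8 endothelial markers summed to 70.6 and 86.2 CPM, with Cdh5 and Kdr at 0 in femur and Kdr, Flt4 and Esam at 0 in ectopic cells. Other stromal marker lists differed between tissues in the CAR-like cells: the 10 osteoblast markers summed to 6833 and 3613 CPM, with Dmp1 at 0 in both and Mepe at 0 in ectopic cells. Ibsp alone held 11524 of the 14902 femur and 1827 of the 6919 ectopic UMIs of that list. The higher femur sum thus rested on Ibsp, and the rest of the list summed higher in ectopic cells. The 9 fibroblast markers summed to 566 and 1339 CPM, with Ly6c1 at 0 in both, Dpt and Mfap5 at 0 in femur and Cd34 at 0 in ectopic cells. The 7 pericyte and smooth muscle markers summed to 371 and 160 CPM, with Mcam at 0 in femur and Rgs5 at 0 in ectopic cells. Their part in the levels of the 9 genes was not tested. The CAR-like cells included a cluster of very low depth, with 48 cells in femur (median 1132 UMIs) and 55 in ectopic bone (median 1450 UMIs), which held 30 of the 8024 femur and 1 of the 113 ectopic UMIs of the 9 genes. The libraries had 26 cell barcodes in common, and 0 of the CAR-like cells of either library carried one.

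Levels are given as CPM of the UMIs summed over the CAR-like cells, which compares a gene between libraries and not one gene with another. Ptn (ENSMUSG00000029838) encodes pleiotrophin, a secreted heparin-binding growth factor that CAR cells are known to make. It had 502 UMIs in femur CAR-like cells, 230.2 CPM, and 3 UMIs in ectopic ones, 1.57 CPM, a ratio of 0.00681 with an interval of 0.00140 to 0.0200. Nrg3 (ENSMUSG00000041014), a neuregulin that binds the receptor ErbB4, had 795 femur UMIs, 364.5 CPM, and 19 ectopic UMIs, 9.92 CPM, a ratio of 0.0272 (0.0163 to 0.0428). All 3 ectopic Ptn UMIs lay in 1 cell, which the doublet filter had kept, so without that cell Ptn had 0 ectopic UMIs. Whether the cell was a doublet was not tested further.

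Tenm2 (ENSMUSG00000049336), a teneurin of the cell surface that binds latrophilins across cell contacts, had 624 UMIs in femur CAR-like cells, 286.1 CPM, and 0 in ectopic ones. Set against a floor of 3 UMIs over the ectopic group, it was at least 183-fold lower there. Adarb2 (ENSMUSG00000052551), a brain relative of the RNA-editing deaminases with no known editing activity, had 258 femur UMIs, 118.3 CPM, and 0 ectopic UMIs, at least 75.5-fold lower. These were the 2 genes of the 9 with no ectopic CAR-like UMI.

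Cobl (ENSMUSG00000020173), the actin nucleator cordon-bleu, had 257 femur UMIs, 117.8 CPM, and 1 ectopic UMI, 0.522 CPM, a ratio of 0.00443 (0.000112 to 0.0249), and that UMI lay in the same cell as those of Ptn. Rtl4 (ENSMUSG00000071679), a Gag-like gene derived from a retrotransposon, had 498 femur UMIs, 228.3 CPM, and 2 ectopic UMIs, 1.04 CPM, a ratio of 0.00457 (0.000552 to 0.0166). Eya1 (ENSMUSG00000025932), a phosphatase that acts as coactivator of transcription factors, had 407 femur UMIs, 186.6 CPM, and 3 ectopic UMIs, 1.57 CPM, a ratio of 0.0084 (0.00172 to 0.0247). In these 3 genes the ectopic CAR-like cells held between 1 and 3 UMIs each, so the ratios are known only to within a wide interval.

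Pdzrn4 (ENSMUSG00000036218), a protein with PDZ and RING finger domains, was the gene of the 9 with most UMIs, 4304 in femur (1973 CPM) and 77 in ectopic CAR-like cells (40.2 CPM), a ratio of 0.0204 (0.0160 to 0.0255). It made up 53.6% of the femur UMIs of the 9 genes. Mpped2 (ENSMUSG00000016386), a metallophosphoesterase, had 379 femur UMIs, 173.8 CPM, and 8 ectopic UMIs, 4.18 CPM, a ratio of 0.0240 (0.0103 to 0.0479). Pdzrn4, Mpped2 and Nrg3 were the members with the highest ectopic ratios.

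All 9 genes were at least 30-fold lower in ectopic CAR-like cells, as 0.247% of the 8896 genes with at least 50 UMIs were, which restates how they were chosen. Their median log2 ratio was −6.90, with Tenm2 and Adarb2 set at their bounds, against 0.02 over the 8896 genes. Other defining genes of CAR cells were of like level in both tissues or differed less: Cxcl12 stood at 8472.5 CPM in the femur cells and at 9606 CPM in the ectopic ones, a ratio of 1.13, and Lepr at 3010 and 1405 CPM. Ibsp, a bone matrix gene, stood at 5284 and 954 CPM, a ratio of 0.181. Nrg3 was the last gene inside the choice. The 5 genes outside it with the lowest ratios, among 2172 genes of at least 100 CPM in 1 library, were Aldh1a2, Grm7, Foxp2, Heyl and Thsd4. Aldh1a2, a retinoic acid synthesis enzyme, had the lowest ratio of these genes with any ectopic UMI (0.00278, 1230 against 3 UMIs) and is not one of the 9. Grm7, a glutamate receptor, followed Nrg3 at 0.0394 (347 against 12 UMIs), then Foxp2 at 0.0681 (753 against 45), Heyl at 0.0910 (288 against 23) and Thsd4 at 0.0987 (1788 against 155).

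**Figure D1:**
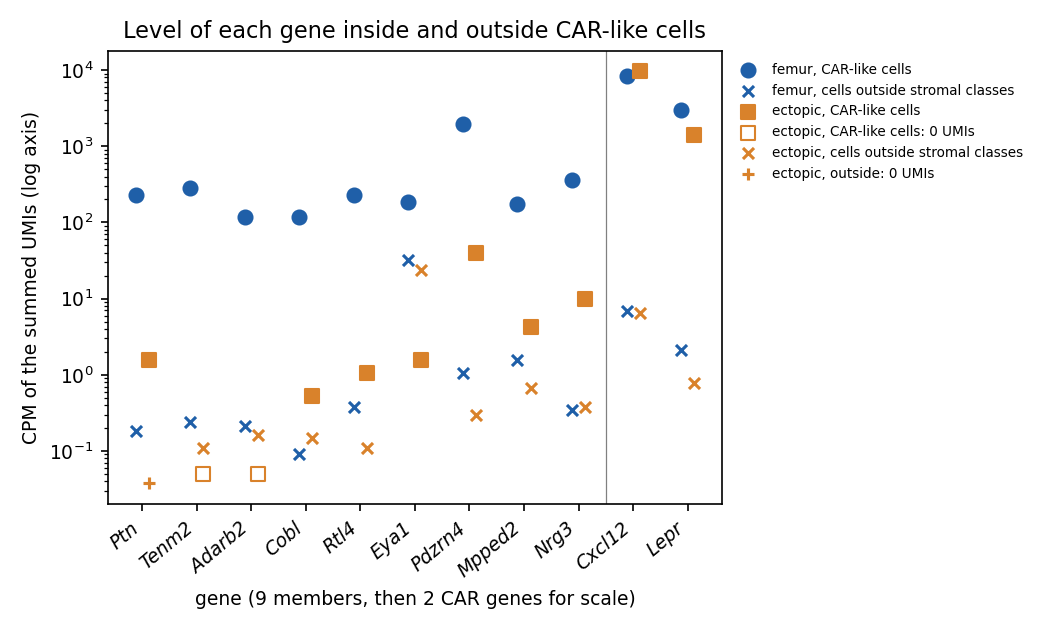
CPM of the UMIs summed over cells (log axis) for the 9 members and, for scale, Cxcl12 and Lepr. Circles and squares are femur and ectopic CAR-like cells, crosses are all other cells of the same libraries, and open symbols and the plus sign at the bottom mark genes with 0 UMIs. Every member lies far higher in femur than in ectopic CAR-like cells, and the crosses come nearest to the femur level for Eya1, at 31.7 and 23.7 CPM.

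The promoters are shown as a description of their letters. The EBF motif was among those searched because Ebf3, a factor that binds it, is a defining gene of CAR cells. The ratio of Ebf3 itself, ectopic over femur CAR-like cells, was 0.643 (0.619 to 0.668). Whether EBF binding has a part in the levels of the 9 genes was not tested. RefSeq windows on build GRCm38.p6 were at hand for 7 of the 9 genes, not for Rtl4 and Eya1, and gave 11 windows, since Cobl, Pdzrn4 and Mpped2 have several start sites. Each window has 250 bases before and 50 after a start site. The 250 bases before the start are printed for 4 genes: Ptn (chr6:36810180-36810429, minus strand), Pdzrn4 (chr15:92396560-92396809, plus strand), Nrg3 (chr14:39473089-39473338, minus strand) and Tenm2 (chr11:36944242-36944491, minus strand). Capitals mark letters that match a searched motif on either strand, other than the E-box. Ptn, Pdzrn4 and Nrg3 are shown for their EBF core match and Tenm2 as a member with no ectopic UMI and no such match.
Ptn: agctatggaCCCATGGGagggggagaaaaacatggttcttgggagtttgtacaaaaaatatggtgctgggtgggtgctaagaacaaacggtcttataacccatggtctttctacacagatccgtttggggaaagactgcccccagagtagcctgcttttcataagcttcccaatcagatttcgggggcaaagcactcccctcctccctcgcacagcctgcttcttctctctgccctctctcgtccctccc
Pdzrn4: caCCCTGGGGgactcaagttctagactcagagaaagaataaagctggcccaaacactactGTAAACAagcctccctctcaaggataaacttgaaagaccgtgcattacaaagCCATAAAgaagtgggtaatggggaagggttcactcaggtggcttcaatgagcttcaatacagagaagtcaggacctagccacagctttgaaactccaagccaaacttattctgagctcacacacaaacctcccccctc
Nrg3: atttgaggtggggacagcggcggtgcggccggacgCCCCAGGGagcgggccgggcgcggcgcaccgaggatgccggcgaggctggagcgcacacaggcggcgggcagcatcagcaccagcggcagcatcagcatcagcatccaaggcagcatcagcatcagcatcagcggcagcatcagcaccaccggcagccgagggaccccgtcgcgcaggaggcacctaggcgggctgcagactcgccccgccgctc
Tenm2: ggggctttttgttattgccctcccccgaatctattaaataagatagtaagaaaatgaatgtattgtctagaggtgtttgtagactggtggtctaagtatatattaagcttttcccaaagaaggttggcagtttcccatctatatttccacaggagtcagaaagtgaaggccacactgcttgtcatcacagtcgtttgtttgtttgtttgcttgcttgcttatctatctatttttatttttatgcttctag

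The EBF core (CCCNNGGG, the same on both strands) was found in 4 of the 11 windows, 36.4%, in Ptn, Pdzrn4, Nrg3 and Mpped2, against 13.7% of all 32851 windows of the same length. The RUNX letters (TGTGGT) were in 1 window, of Pdzrn4 (9.09% against 16.8%), and the forkhead letters (GTAAACA) in 1 window, of Pdzrn4 (9.09% against 3.65%). The homeobox letters (TTTATNG) were in 2 windows, of Pdzrn4 and Mpped2 (18.2% against 10.9%), the TATA box letters (TATAAA) in 1, of Mpped2 (9.09% against 13.6%), and the E-box (CANNTG) in 8 (72.7% against 72.3%). In Mpped2 the homeobox and TATA box letters were matched by the same stretch, TTTATAG, which begins 9 bases after the start site. The N stands for any base, windows of 1 gene are not independent, and a match describes letters only.

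Per-cell detection was compared at 1 depth by drawing 3000 UMIs from each CAR-like cell, which left 184 femur and 131 ectopic cells. B lineage cells of the same library, with a median of 5878 UMIs in femur, were set beside them as a background that includes RNA free in the cell suspension. In femur CAR-like cells Pdzrn4 was detected in 141 of 184 cells, 76.6% (69.8 to 82.5), against 0.372% of 2421 B lineage cells. Mpped2 was detected in 33.7% (26.9 to 41.0), Eya1 in 32.6% (25.9 to 39.9) and Ptn in 31.5% (24.9 to 38.8) of the cells. Tenm2 and Nrg3 were each found in 51 cells, 27.7% (21.4 to 34.8). Rtl4 was found in 20.7% (15.05 to 27.2), Cobl in 20.1% (14.6 to 26.6) and Adarb2 in 14.1% (9.44 to 20.02). Thus 1 of the 9 genes marked most femur CAR-like cells at this depth, and the other 8 a minority each.

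The intervals of Mpped2, Eya1, Ptn, Tenm2 and Nrg3 overlapped one another, as did those of Rtl4, Cobl and Adarb2. That of Rtl4 also overlapped each interval of the first group, and that of Cobl those of Eya1, Ptn, Tenm2 and Nrg3. The first and second group are thus not separate levels of detection as wholes. The interval of Adarb2 lay below each one of the first group, and that of Cobl below that of Mpped2. All shares come from the same cells, so overlap of intervals is a description and no test. In femur B lineage cells Ptn, Tenm2, Adarb2 and Nrg3 were each detected in 0.0826% of cells, Rtl4 in 0.0413%, Mpped2 in 0.454% and Cobl in none, which allows up to 0.124%. Eya1 was the exception, at 19.3% (17.8 to 21.0). Without drawing to a fixed depth, over all 242 cells, the femur shares were 71.5% for Pdzrn4, 52.1% for Mpped2, 45.9% for Eya1, 42.1% for Ptn, 33.5% for Cobl, 27.7% for Nrg3, 26.9% for Tenm2, 22.7% for Rtl4 and 16.1% for Adarb2. The shares of Mpped2, Eya1, Ptn and Cobl were thus higher without the draw, and that of Pdzrn4 was lower. Those of Tenm2, Nrg3, Rtl4 and Adarb2 differed little. The shares without the draw also cover 58 femur cells that were too shallow for it. Depth and the set of cells thus changed together, and the part of depth alone was not tested.

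The UMIs of the 9 genes were spread unequally over cells. In femur cells with any UMI of the gene, the median was 2 UMIs for Cobl, Eya1 and Mpped2 and 3 for Ptn, but 4 for Rtl4, 5 for Tenm2 and Adarb2, 9 for Nrg3 and 11 for Pdzrn4. The highest cell held 67 UMIs of Rtl4, 58 of Tenm2, 54 of Nrg3, 37 of Adarb2 and 211 of Pdzrn4. For Adarb2 43.4%, for Rtl4 42.6% and for Tenm2 37.2% of all femur UMIs lay in the 5 highest cells, against 15.8% for Mpped2, 16.5% for Pdzrn4, 20.6% for Eya1 and 20.9% for Ptn. Nrg3 and Cobl lay between, at 25.9% and 26.8%, and Cxcl12 had 5.84%. The UMIs of Adarb2, Rtl4 and Tenm2 were thus the most concentrated in their highest cells, and those of Mpped2 and Pdzrn4 the least of the 9.

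In ectopic CAR-like cells at the same depth, Pdzrn4 was detected in 10 of 131 cells, 7.63% (3.72 to 13.6), Nrg3 in 3 cells, 2.29%, and Rtl4 in 1, 0.763%. The other 6 genes were detected in 0 of 131 cells, which allows a share of up to 2.29% (3 counts of the total). Over 9 further draws Eya1 and Mpped2 reached at most 1.53% and Ptn and Cobl at most 0.763%, while Tenm2 and Adarb2 had 0 in each draw. The Pdzrn4 share lay above the 0.196% of 2040 ectopic B lineage cells. Eya1 was detected in 16.5% (14.9 to 18.2) of those B lineage cells.

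**Figure D2:**
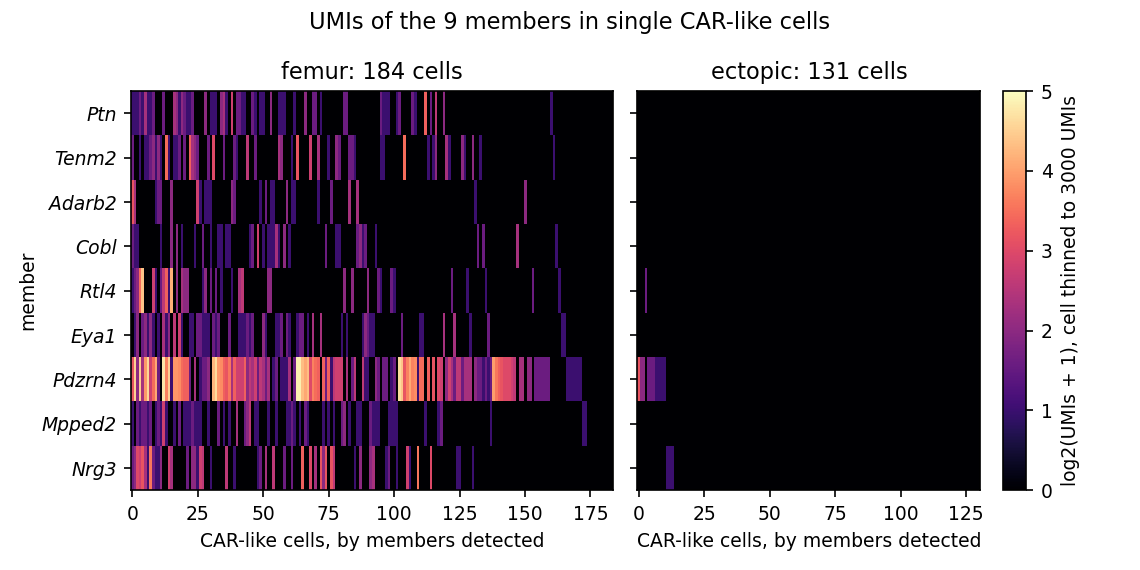
UMIs of each member (rows) in each CAR-like cell (columns, ordered by the number of members detected), as log2(UMIs + 1) after drawing 3000 UMIs per cell, for 184 femur and 131 ectopic cells. Pdzrn4 fills most of the femur columns, the other members fill fewer, and the ectopic panel is dark apart from 14 cells.

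Femur CAR-like cells carried several of the 9 genes at once. At 3000 UMIs per cell the median was 3 genes, with quartiles of 1.75 and 4 and a range of 0 to 8, and 174 of the 184 cells had at least 1. In ectopic CAR-like cells 117 of 131 had none, 14 had 1 and 0 had 2 or more. The spread among femur cells was wider than independent detection of the 9 genes would give: the variance was 2.78 against 1.68. Cells with none of the genes made up 5.43%, where independent detection gives 2.03%, and cells with 6 or more made up 6.52% (12 cells) against 2.44%.

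Over the 36 pairs of the 9 genes, 29 were found together in more femur cells than the product of their single shares, with a median ratio of 1.17. The same ratio was not computed for pairs of other genes. Whether these values, or the wide spread above, are particular to the 9 genes was therefore not tested. The highest ratio was that of Adarb2 and Nrg3, 2.08, with both in 8.15% (4.63 to 13.1) of cells where the product is 3.92%. Ptn and Rtl4 followed, both in 11.4% of cells against 6.51%, a ratio of 1.75, then Adarb2 and Rtl4 with 4.89% against 2.92%, a ratio of 1.68. The lowest pair was Tenm2 and Cobl, both in 3.804% of cells against a product of 5.57%, a ratio of 0.683. Adarb2 with Pdzrn4 (0.903) and Adarb2 with Eya1 (0.944) were next, so Adarb2 was in the highest pair and in 2 of the 3 lowest.

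Correlations between pairs over the 184 cells were weak, with a median Pearson r of 0.06 (lowest −0.11, highest 0.28) and a median Spearman rho of 0.09. They are descriptions over cells of 1 library that share its depth and free RNA. Set against the summed other 8 genes, Mpped2 had an r of 0.36, Eya1 0.33, Ptn 0.32, Pdzrn4 0.28, Rtl4 0.24, Tenm2 0.20, Cobl 0.11, Nrg3 0.10 and Adarb2 0.03.

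**Figure D3:**
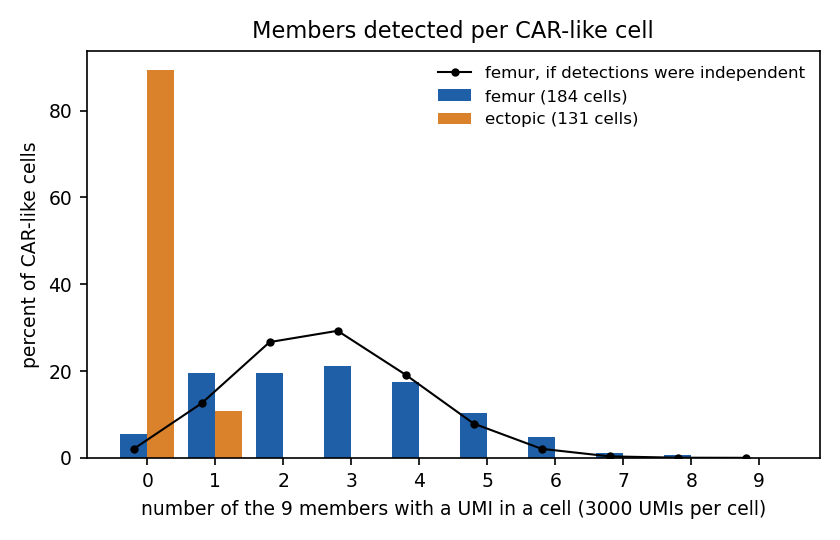
Percent of CAR-like cells (vertical axis) by the number of the 9 members with a UMI after drawing 3000 UMIs per cell (horizontal axis), with 184 femur cells in blue and 131 ectopic cells in orange. The line gives the femur percentages if the 9 detections were independent; the femur bars exceed it at 0, at 1 and from 5 to 8, and 117 ectopic cells are at 0.

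**Figure D4:**
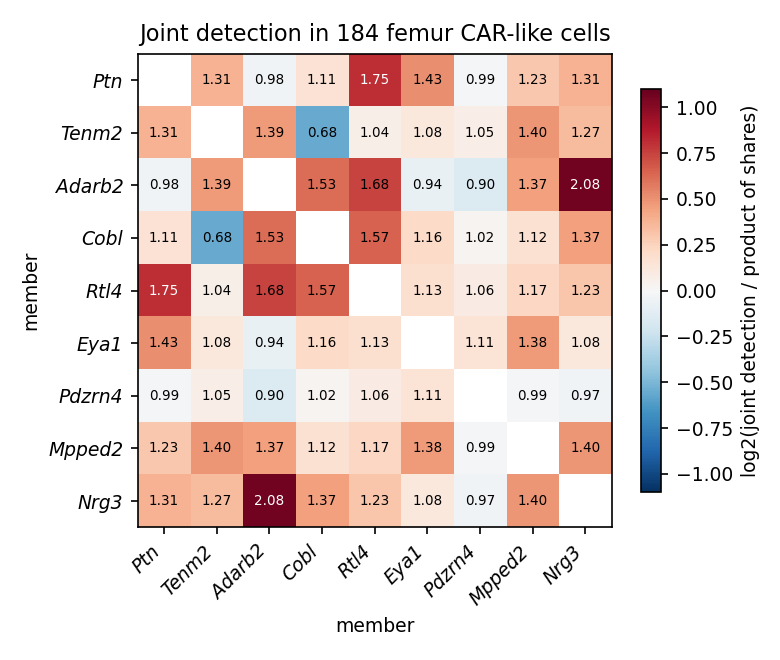
Ratio of joint detection to the product of the single shares for the 36 pairs of members in 184 femur CAR-like cells, coloured on a log2 axis and printed as the ratio. Most pairs lie above 1, from 0.683 for Tenm2 with Cobl to 2.08 for Adarb2 with Nrg3.

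Cells with few and with many of the 9 genes were compared for CAR genes. The 82 femur cells with at most 2 members had 24.5 Cxcl12 UMIs per cell of 3000 and the 12 cells with 6 or more had 28, Kitl stood at 9.84 and 11.1, and Lepr at 7.49 and 12.6. Adipoq went the other way, at 3.50 and 2.08 UMIs per cell, and Foxc1 stood at 1.22 and 1.17. The bone sialoprotein gene Ibsp stood at 14.05 and 15.9 UMIs per cell. The median depth before the draw was 10446 UMIs in the first and 13555.5 in the second set of cells. Ptprc, the CD45 gene of blood cells, stood at 0.244 and 0 UMIs per cell. The part of depth and of blood cell RNA in the number of members was not tested.

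Ibsp marks CAR cells with bone-lineage gene expression, and 172 of the 184 femur cells had an Ibsp UMI. These cells had a median of 3 members (quartiles 2 and 4), and the 12 cells without Ibsp a median of 1.5, at median depths of 11115 and 6725.5 UMIs. Rtl4 was detected in 22.1% of the cells with Ibsp and in 0 of the 12 without. Eya1 was detected in 32.0% and in 5 of 12 cells, 41.7% (15.2 to 72.3), so with 12 cells no difference was detectable for either gene.

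Finer clusters, an alternative chosen after seeing the data, divided the CAR-like cells in 3. The first held 149 femur and 4 ectopic cells, the second 45 and 122, and the third, the cluster of low depth, 48 and 55. In the second, the 31 femur cells of at least 3000 UMIs had a median of 3 members (quartiles 2 and 4) and the 119 ectopic cells a median of 0. Median depths there were 3801 UMIs in femur and 13916 in ectopic cells before the draw. In the first, the 149 femur cells had a median of 3 members (quartiles 1 and 4). In the third, 4 femur and 8 ectopic cells reached 3000 UMIs, with medians of 0 members in both.

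Over all depths, 25 of the 181 ectopic CAR-like cells, 13.8%, had any UMI of the 9 genes, with 113 UMIs in all. A single cell with 22 Pdzrn4 UMIs held 19.5% of them, and the 5 highest cells 52.2%. Pdzrn4 UMIs lay in 15 cells, those of Mpped2 and of Nrg3 in 5 cells each and those of Eya1 in 3 cells. All 3 Ptn UMIs and the only Cobl UMI lay in 1 cell, which also had 1 Eya1 and 3 Mpped2 UMIs. That cell had 55039 UMIs and 12 of Cxcl12, and it was one of the 4 ectopic cells in the finer cluster made up mostly of femur cells. It was also the only ectopic cell with more than 2 of the 9 genes. The 22 Pdzrn4 UMIs lay in a cell with 143 Cxcl12 UMIs and no UMI of the other 8 genes.

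In cells that were not CAR-like, levels were read against that of Cxcl12, whose UMIs in blood cells were taken as a measure of free CAR cell RNA. In femur the other 9513 cells held Cxcl12 at 0.0821% of its CAR-like level, and Kitl, Lepr, Ebf3 and EGFP, the reporter transcript, lay between 0.0365% and 0.0709%. In a like range lay 5 members: Pdzrn4 at 0.0531%, Cobl at 0.0769%, Ptn at 0.0788%, Tenm2 at 0.0845% and Nrg3 at 0.0939%. Rtl4 stood at 0.168% (0.117 to 0.233) and Adarb2 at 0.179% (0.109 to 0.279), with 38 UMIs in 30 cells and 21 UMIs in 21 cells. Mpped2 stood at 0.904% (0.745 to 1.09), 156 UMIs in 59 cells, and Eya1 at 16.97% (15.3 to 18.9), 3144 UMIs in 1274 cells. With CAR-like cells taken by counts instead (5 Cxcl12 UMIs and no Ptprc), the share was 0.430% for Cxcl12, 0.678% for Cobl, 0.703% for Nrg3, 0.529% for Tenm2, 0.528% for Pdzrn4, 0.259% for Ptn, 0.202% for Rtl4, 0.344% for Adarb2, 1.19% for Mpped2 and 16.8% for Eya1. That rule took 196 femur cells as CAR-like in place of 242, and the part of this change of cells in the higher shares was not tested. Confinement to femur CAR-like cells therefore did not hold for Eya1 and held only in part for Mpped2.

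Eya1 was present in several blood cell classes of both libraries. In natural killer (NK) cell-like cells it had 198 CPM (femur) and 102 CPM (ectopic), a ratio of 0.513 (0.376 to 0.695), with a UMI in 45 of 72 and 32 of 59 cells. In plasmacytoid dendritic cell-like cells it stood at 142 and 108 CPM, a ratio of 0.760 (0.630 to 0.913). In B lineage-like cells it stood at 100.1 and 80.0 CPM, a ratio of 0.7995 (0.746 to 0.857). The femur level in CAR-like cells, 186.6 CPM, was thus next to that of NK cell-like cells, while the ectopic level in CAR-like cells, 1.57 CPM, was below that of each of these classes.

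Lower classes followed in both libraries. A cluster of 43 femur and 32 ectopic cells led by Fcrl5 and Sox5 had 71.1 and 52.7 CPM of Eya1, erythroid-like cells 48.2 and 22.4 CPM (ratio 0.465, 0.348 to 0.615), dendritic cell-like cells 27.0 and 10.6 CPM, and myeloid progenitor-like cells 11.3 and 5.88 CPM. T cell-like cells (2.59 and 3.34 CPM), monocyte-like cells (2.69 and 1.90 CPM) and neutrophil-like cells (0.844 and 0.357 CPM) were lower still, with intervals of the ratio that include 1. Basophil and mast cell-like cells had 1 Eya1 UMI in femur (2.29 CPM) and 0 in ectopic bone, and macrophage-like cells 1 and 0. An unnamed cluster of low depth, 52 femur and 48 ectopic cells, had 8 and 14 Eya1 UMIs. With 1 library each, neighbours in this order cannot be ranked over mice. In NK cell-like, plasmacytoid dendritic cell-like, B lineage-like and erythroid-like cells the ectopic level was between 0.465 and 0.7995 of the femur one. In dendritic cell-like cells it was 0.394 (0.203 to 0.756) and in myeloid progenitor-like cells 0.522 (0.260 to 0.975). In CAR-like cells it was 0.0084, a ratio for which the gene was chosen.

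Within the B lineage Eya1 was highest in the cluster led by Reln and Rag1, the recombinase gene of developing lymphocytes, with 203 CPM (femur) and 166 CPM (ectopic). It stood at 103 and 117 CPM in the cluster led by Vpreb1, a pre-B cell receptor gene, and at 39.0 and 34.3 CPM in the cluster led by Ighd and Fcer2a, genes of mature B cells. The order of these 3 clusters was the same in both libraries. They differ in depth, with femur medians of 4670, 11050 and 5246.5 UMIs. The cluster led by Ighd and Fcer2a had 752 of the 2567 femur and 1057 of the 2104 ectopic B lineage-like cells. Further B lineage clusters had 87.4 and 90.7 CPM (led by Myl4), 150 and 162 CPM (led by Cecr2) and 79.6 and 74.4 CPM (led by Ms4a1). The ectopic level was therefore not lower in every B lineage cluster. The ratio over all B lineage-like cells also carries the different mix of clusters in each library, and the part of that mix was not tested.

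Mpped2 outside CAR-like cells lay mainly in erythroid-like cells. In femur they had 98 of the 156 outside UMIs, in 26 of 138 cells (21.4 CPM), and in ectopic bone 29 of 49, in 8 of 66 cells (9.86 CPM), a ratio of 0.461 (0.294 to 0.704). Erythroid-like cells were deep, with medians of 26717 and 43953 UMIs, but Cxcl12 there had 13 and 9 UMIs. At the CAR-like ratio of Mpped2 to Cxcl12, those 13 UMIs would come with 0.267 Mpped2 UMIs in femur. Rtl4 had 7 UMIs in a single femur erythroid-like cell. In ectopic cells that were not CAR-like Nrg3 had 28 UMIs, Pdzrn4 22, Adarb2 12, Cobl 11, Tenm2 8, Rtl4 8 and Ptn 0. Tenm2 and Adarb2, without a UMI in ectopic CAR-like cells, were therefore found at 0.108 and 0.162 CPM in other cells of that library.

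**Figure D5:**
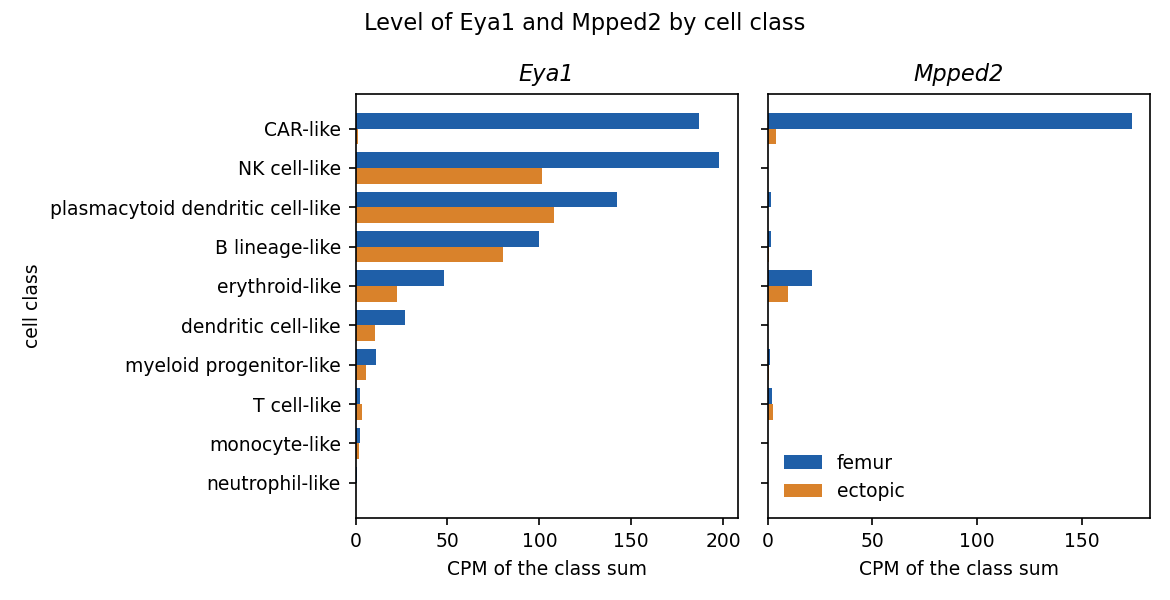
CPM of Eya1 (left) and Mpped2 (right) summed over each cell class, with femur in blue and ectopic bone in orange, 1 library each and no error bar. Eya1 is high in femur CAR-like cells and in NK cell-like, plasmacytoid dendritic cell-like and B lineage-like cells of both libraries, and is 1.57 CPM in ectopic CAR-like cells. Mpped2 is 173.8 CPM in femur CAR-like cells, and among the other classes it is visible mainly in erythroid-like cells.

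The genes whose pattern over the 184 femur cells was most like the summed 9 genes, by Pearson r of log values among 4243 genes of at least 100 femur UMIs, were Kalrn, Kitl, Atxn1, Dlc1, Adcy2, Antxr1, Negr1, Mical3, Egfr and Bicc1. Their r lay between 0.64 for Kalrn, a guanine nucleotide exchange factor, and 0.47 for Bicc1, an RNA-binding protein, where the median over the candidates was 0.02 and depth itself (log UMIs) had 0.09. Kitl, stem cell factor, was second at 0.55. Since Pdzrn4 makes up most of the sum, r was also computed without it, an alternative chosen after seeing the data, and was then 0.51 for Kalrn, 0.47 for Kitl and between 0.36 and 0.46 for the other 8.

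The ratios of these 10 genes lay between 0.236 and 1.01, where the 9 had been chosen for low ratios. Kitl had 3981 CPM in the femur sum, against 3583 CPM in the ectopic sum, a ratio of 0.900, Mical3 at 1.01 and Bicc1 at 0.882. Negr1, an adhesion molecule, was the lowest of the 10, at 1774 and 419 CPM, a ratio of 0.236, followed by Adcy2, an adenylyl cyclase, at 0.327. Kalrn stood at 0.452, Egfr at 0.482, Antxr1 at 0.488, Dlc1 at 0.845 and Atxn1 at 0.861. Negr1, Adcy2, Kalrn, Egfr and Antxr1 were thus at least 2-fold lower in ectopic CAR-like cells, as 4.44% of all 8896 genes were. At the other end of r stood Wif1, a Wnt inhibitor, at −0.51, and Sdc3, a syndecan to which pleiotrophin binds, at −0.46; these 2 were named after their values were seen.

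A list of 52 relatives and binding partners of the 9 genes was examined beside them. Of these, 27 had at least 50 UMIs in the CAR-like cells of both libraries together. At least 1.5-fold lower in ectopic CAR-like cells were 8 of the 27, 29.6%, where 10.4% of all 8896 genes were, and at least 1.5-fold higher were 4, 14.8% against 10.5%. At least 2-fold lower were 5 of the 27, where 4.44% of all genes were, and at least 2-fold higher 2, where 3.33% were. The median log2 ratio of the 27 was −0.20, against 0.02 over all genes.

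Among teneurins, Tenm3 had 49 femur UMIs and 1 ectopic UMI, a ratio of 0.0232 (0.000577 to 0.136), and Tenm4 434 and 172, a ratio of 0.451. The latrophilin Adgrl2, a receptor for teneurins, stood at 0.622, while Adgrl1 stood at 1.90 and Adgrl3 at 0.669. Among the Eya genes and related factors Eya4 stood at 0.451 (497 and 224 CPM) and Eya2 at 0.608, whereas Eya3, Six5 and Dach1 lay between 0.768 and 0.943. Adar, an active editing enzyme, had 59 and 27 UMIs, a ratio of 0.521, and Adarb1 stood at 0.820.

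Midkine (Mdk), the closest relative of Ptn, was higher in ectopic CAR-like cells, with 164 CPM (femur) against 359 CPM (ectopic), a ratio of 2.19 (1.93 to 2.50). The receptors and partners of Ptn with enough UMIs (Sdc1, Sdc2, Sdc3, Sdc4, Ptprs, Nrp1 and Lrp1) lay between 0.804 and 1.15, and the receptors Ptprz1 and Alk had 17 and 1 UMIs in femur and 1 and 0 in ectopic cells. For Nrg3, the receptor Erbb4 had 2 and 0 UMIs and Erbb3 none in either, so its known receptor was hardly detected in CAR-like cells of either tissue. The neuregulin Nrg2 stood at 1.03, Egfr at 0.482, and Erbb2 at 1.68 with an interval of 0.963 to 2.99. Pdzrn3, the nearest relative of Pdzrn4, stood at 1.44 and Lnx2 at 2.34 (17 and 35 UMIs), so neither was lower in ectopic cells.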

How the data were processed

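Femur marrow and BMP-2 induced ectopic bone gave 1 library each, made with a 3ʹ v3.1 droplet kit per the labels. The authors deposited raw UMI counts. Per the file headers they come from Cell Ranger 7.0.1, and the submitters' processing notes name build GRCm39. The annotation, and whether intronic reads were counted, are not given in the sources used here. Cells with at least 500 UMIs, 300 genes and at most 10% mitochondrial UMIs were kept. The highest doublet scores (Scrublet's method in scanpy 1.11.5) were left out at 0.8% per 1000 cells, which removed 910 femur and 369 ectopic cells. Both libraries were clustered together by the Leiden method (igraph 0.11.9, resolution 1) on 2000 variable genes without the 9, with 30 components and 15 neighbours. A cluster took the class with most markers among its 10 leading genes, ties (also at 0) going to the highest mean log fold of the markers, if at least 3 markers were over 1.5-fold higher. Of the 6 B lineage clusters 2 had 0 markers among the 10, as had the cluster led by Fcrl5 and Sox5, which goes by those genes.

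Levels are CPM of summed UMIs, computed here. Ratios have exact conditional binomial intervals and shares have Clopper-Pearson ones; the limit beside a count of 0 is 3 counts of the total. The scripts were tested on simulated data. Named besides the 9 genes were the 5 lowest ratios outside them and the 10 genes of highest r. The members, lists and naming rules were chosen with earlier results of these data known, and no p-value is given. Promoter sequences are RefSeq's, and edgeR 4.0.16 gave an alternative scaling. Single values of a few listed genes are not reported here.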

Additional observations from a re-analysis of the deposited data

How the results depend on the processing

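Each value was recomputed with other filters, clusterings, scalings and depths. The 9 genes were chosen for low ratios in these same data, so their sign under other settings is a description and no separate evidence. With 13 alternative settings for each gene, all 117 log2 ratios of the 9 genes were negative, between −10.1 and −3.83. Their median was −4.76 with each cell thinned to 3000 UMIs, where 6 genes have 0 ectopic UMIs and are set at the floor of 3, and otherwise between −7.19 and −6.22. A median of 4 members per femur cell was found with each cell thinned to 6000 UMIs, and in cells with Ibsp a median of 4 at that depth and with no thinning, in place of 3. The level of the 9 genes in other femur cells was 0.971% of that in CAR-like cells, 0.906% with at least 1500 UMIs per cell, 1.19% without doublet removal and 1.35% with CAR-like cells taken by counts. Eya1 makes up most of that level, and single genes moved more under the last setting, Pdzrn4 from 0.0531% to 0.528%. That setting took 196 femur cells as CAR-like. With a fold of 2, 5 of the 27 relatives were lower and 2 higher, where 4.44% and 3.33% of all genes were. Of single-gene values 41 moved and 554 did not. Other resolutions, or allowing the 9 genes in the clustering, gave the same 242 and 181 CAR-like cells. The barcodes left out held 3229 femur and 316 ectopic UMIs of the 9 genes. Without doublet removal there were 298 and 201 CAR-like cells, and the median log2 ratio was −6.22. No paired analysis was possible because each tissue has 1 library. The few ectopic UMIs limit the ratios of Ptn, Cobl, Rtl4 and Eya1, which rest on 1 to 3 UMIs.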
